A study of Mus musculus with 41 samples.

Results

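This account describes 300 mouse genes: those most highly expressed in wild-type (WT) cells among the genes that the study placed on a pair of lists from CAPRIN1 RNA immunoprecipitation sequencing (RIP-seq), in which RNA that comes down with an antibody to a protein is sequenced. The lists are headed "CNT vs RA", with 2170 symbols, and "2I vs RA", with 2502 symbols. They share 1342 symbols, which is 61.8% of the first list and 53.6% of the second. Neither list gives a direction, a value or a threshold, so presence on both is all that is known here of binding. Of the shared symbols 1295 occur in the RNA-seq count tables. Another 11 were dropped because their names begin with Rpl, Rps, Col or Lam, patterns aimed at ribosomal protein, collagen and laminin genes. Members were chosen by these lists and by level: the remaining 1284 were ranked by mean CPM (counts per 1000000 counts of the library) in the 4 WT libraries at 0 h, and the top 300 of them were kept, out of 51410 gene identifiers in all. The 10 of highest rank ran from Peg10 at 5333 CPM through Peg3 (2923), Actb (2760), Sparc (2631), Flna (2130), Tubb5 (2123), Myh9 (1917), Eif4g2 (1842) and Ncl (1734) to Calr (1701). Just inside the limit were Ranbp2 at 244 CPM, Tnrc6a at 244 and Zfp207 at 243. Just outside were Arfgef1 at 243 CPM, Npepps at 242 and Fam168b at 241.

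CAPRIN1 is a cytoplasmic RNA-binding protein. It binds G3BP1 and G3BP2, the proteins that seed stress granules, and is found in granules that carry mRNA in neurons and other cells. RNA-binding proteins of this kind can affect how long an mRNA persists, where it lies in the cell and how often it is translated. The level of an mRNA is set by its synthesis and its decay, and blocking RNA polymerase II is a common way to follow decay alone.

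The WT cells were R1 mouse embryonic stem cells (ESCs), and 2 clones knocked out (KO) for Caprin1, clone 2 and clone 4, were compared with them. All of them, WT included, had spent 4 days in 1 µM retinoic acid, which drives ESCs to differentiate, in medium lacking the self-renewal cytokine LIF. They then received 2 µg/ml α-amanitin, a toxin that blocks RNA polymerase II, and were harvested at 0, 2, 4 or 8 h. There were 4 WT libraries at each time, 2 of each clone at 2, 4 and 8 h, and at 0 h the table held 2 of clone 2 and 1 of clone 4. Each KO line is 1 clone, so what separates a clone from WT cannot be told apart from what separates any cell clone from another. Libraries of 1 line at 1 time are not said to come from separate cultures, so p-values measure the spread between these libraries, which may be technical.

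Total counts per library ran from 3953468 to 31565738 at 0 h (n = 7), from 6359591 to 8371258 at 2 h, from 3460172 to 10244834 at 4 h and from 7240127 to 10566579 at 8 h (n = 8 each). Summed markers of several cell types differed between the lines. A list of 14 endoderm markers, of which Apoa1 and Afp were near 0 in WT, summed to between 2099 and 2828 CPM in WT, 6206 to 8116 in clone 2 and 2912 to 4630 in clone 4. The 12 neuroectoderm markers summed to 339 to 517 CPM in WT, 123.1 to 174 in clone 2 and 396 to 513 in clone 4. The 12 pluripotency markers, all detected, gave 711 to 1161 CPM in WT, 1756 to 3233 in clone 2 and 912 to 1519 in clone 4; most of the clone 2 sum was Klf5 (mean 1268 CPM, against 292 in WT), while Sox2 (52.9 against 66.7), Esrrb (36.2 against 46.6) and Utf1 (8.56 against 15.4) were below WT and Nanog was at 56.2 against 51.8. The 12 fibroblast markers gave 1027 to 1430 CPM in WT, 1075 to 1403 in clone 2 and 2877 to 3355 in clone 4. Without the member Acta2 they gave 317 to 377, 838 to 1187 and 1140 to 1383 CPM; in clone 2 most of this was Pdgfra (mean 682 CPM, against 169 in WT), Twist1 was below WT (12.5 against 49.4), and Lum was near 0 in all lines. In bulk RNA, more cells of a type and more RNA per cell cannot be told apart.

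Caprin1 itself is a member, at rank 33, and lies at chr2:103762945-103797669 (GRCm38). Its RNA stood at 1028 ± 107 CPM of the library total in WT (SD, n = 16), 130 ± 27.0 CPM in clone 2 (n = 8) and 1061 ± 78.9 CPM in clone 4 (n = 7). The libraries of clone 2 were therefore all far below WT, whereas those labelled clone 4 lay in the WT range of 834 to 1204 CPM. Clone 2 was lower than WT by log2 differences of -2.82 at 2 h, -2.37 at 4 h and -3.16 at 8 h. In clone 4 the difference was 0.05 at 2 h (adjusted p = 0.453), 0.30 at 4 h (adjusted p = 0.000229) and -0.11 at 8 h (adjusted p = 0.0408, which no longer passed in 3 of the 8 fits that left out 1 library: replicate 1 of clone 4, or replicate 1 or 3 of WT). RNA level alone does not check the label of clone 4, and the files used here hold no protein measurement. Below, "clone 4" means the libraries labelled so.

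Since the WT libraries at 0 h chose the members, levels at 0 h are described without a test, and the tests use 2, 4 and 8 h. All 300 members passed the filter on low counts at these times. In clone 2, 111 members were higher and 130 lower than WT at 2 h (80.3% called, against 61.8% of all genes tested), 131 and 105 at 4 h (78.7% against 61.9%), and 114 and 129 at 8 h (81% against 63.6%). In clone 4, 102 were higher and 92 lower at 2 h (64.7% against 41.3%), 116 and 66 at 4 h (60.7% against 47.1%), and 113 and 82 at 8 h (65% against 37.5%). Among the other genes tested (492, or 491 at 4 h) whose WT level at 0 h was at or above that of the lowest member, 73.4%, 75.8% and 75.8% were called in clone 2 and 53.3%, 57.6% and 49.6% in clone 4. The name patterns that dropped genes from the members were not applied to this set of other genes. Members were called in both directions in each of these 6 comparisons. Their median log2 difference from WT lay between -0.05 and 0.10, a value that depends on the TMM scaling. With library totals it was -0.175, -0.104 and -0.19 in clone 2 at 2, 4 and 8 h, and -0.0336, 0.00551 and -0.0355 in clone 4. The split depends on scaling. With library totals in place of TMM factors the higher share of the calls went from 46.1% to 35.9% at 2 h, from 55.5% to 39.1% at 4 h and from 46.9% to 33.6% at 8 h in clone 2, and from 63.7% to 49.7% at 4 h and from 57.9% to 46.3% at 8 h in clone 4. That scaling moves the median of all genes most in clone 2 at 4 h, from -0.01 to -0.19, and differences given here are relative to TMM.

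The clones were then read together. A member was called in both when it passed the test with the same sign in each clone. At 2 h, 77 were higher and 73 lower in both clones (14.5% and 13.9% of all genes), at 4 h 90 and 54 (16.2% and 15.9%), and at 8 h 72 and 57 (11.5% and 10.7%). Members called with opposite signs numbered 26 at 2 h (3.51% of all genes), 24 at 4 h (3.5%) and 38 at 8 h (6.03%). Across all of 2, 4 and 8 h, 61 members were higher in both clones (20.3%, against 7.43% of 13449 genes), 34 were lower in both (11.3% against 6.32%), and 14 differed from WT in opposite directions in the clones (4.67% against 1.34%). The other 191 held no such call. With library totals in place of TMM the order of the first pair turned, with 44 members higher in both clones and 53 lower. Of the 491 other genes at the members' level, 30 were higher, 54 lower and 9 opposite. The top 300 genes found only on the CNT list gave 22, 33 and 7, and the top 300 found only on the 2I list gave 18, 37 and 3. These single-list sets share genes with the other genes at the members' level, and some of their genes lie below that level. The sets are therefore not matched to the members. These counts describe the sets, and no test of the difference between sets was made.

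**Figure D1:**
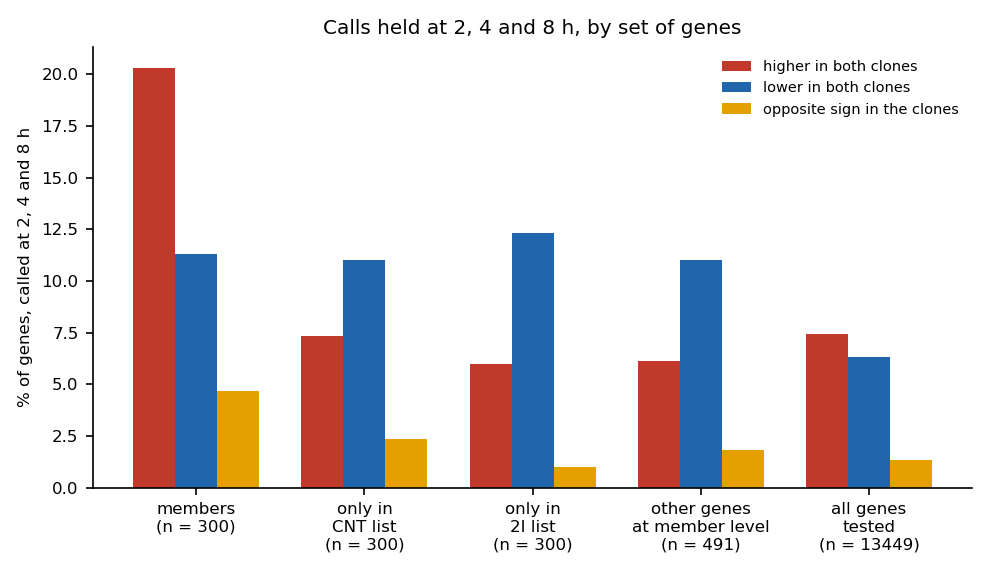
Percentage of genes (vertical axis) called against WT at each of 2, 4 and 8 h in both clones, as higher in both, lower in both or opposite in sign, for the members and 4 other sets of genes (horizontal axis, with the number of genes). The members show 20.3% higher in both clones, and the other sets between 6 and 7.43%. The 4 other sets overlap, and some genes of the single-list sets lie below the members' level.

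Several of the most abundant members differed from WT by little, although some of these differences passed the test. Over 2 to 8 h the libraries of both clones overlapped those of WT for Tubb5, a β-tubulin, for Eif4g2, a translation initiation factor, and for Ncl, nucleolin. Tubb5 was called lower in both clones at 2 h (-0.18 in clone 2, -0.15 in clone 4) and 4 h (-0.14 and -0.17) and higher in clone 2 at 8 h (0.11), a sign that turns with library totals; the clone 2 call at 4 h was lost in 7 of 8 fits that left out 1 library. Eif4g2 was called only in clone 2, at 2 h (-0.15) and 8 h (-0.20), and Ncl in clone 4 at 2 h (0.19) and in both clones at 4 h (0.29 and 0.49). Actb, β-actin, read 3233 to 3913 CPM in WT, 2458 to 3656 in clone 2 and 3952 to 4519 in clone 4. Clone 4 thus lay wholly above WT for Actb (0.26, 0.23 and 0.28, all called), and clone 2 was called lower at 2 h (-0.13) and 8 h (-0.48). Myh9, nonmuscle myosin IIA, was called higher in clone 4 at each time (0.21, 0.31 and 0.50) and in clone 2 at 4 h (0.16, which turns sign with library totals).

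The clones differed in size of effect. Clone 4 and clone 2 differed from each other in 203 members at 2 h (48.7% of all genes), 188 at 4 h (47.6%) and 229 at 8 h (58.4%). Of the 61 members higher in both, 48 were lower in clone 4 than in clone 2 at every one of 2, 4 and 8 h by the test between the clones, and none was higher at every one. Their median log2 difference from WT was 0.88 in clone 2 and 0.37 in clone 4. Of the 34 lower in both, 19 were higher in clone 4 than in clone 2 at all these times, with medians of -0.79 and -0.44. Libraries of clone 2 did not overlap those of WT across 2, 4 and 8 h for 144 of the 300 members (against 28.2% of genes at 1 CPM or more), and those of clone 4 for 70 (against 11.2%).

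**Figure D2:**
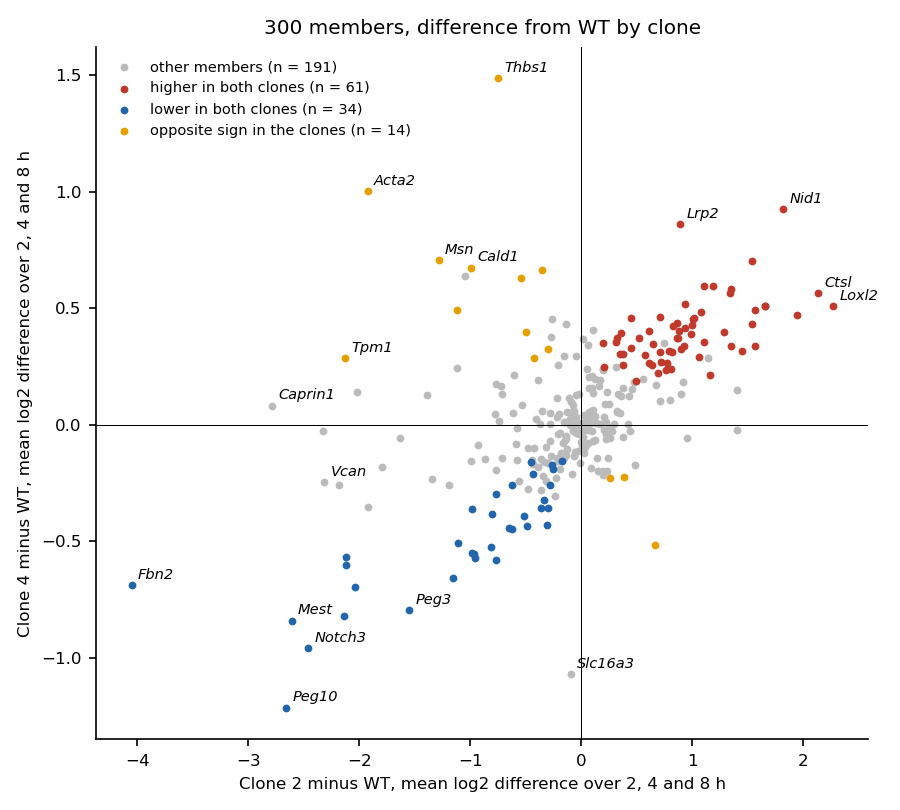
Each point is 1 of the 300 members, placed by its mean log2 difference from WT over 2, 4 and 8 h in clone 2 (horizontal axis) and clone 4 (vertical axis), with colours for the calls held at all 3 times. Both axes use the same WT libraries, and they are drawn to different scales: clone 2 reaches -4.05 at Fbn2, where clone 4 is at -0.69, and Thbs1 and Acta2 lie on opposite sides of 0 in the clones.

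The most uniform group was the endoplasmic reticulum (ER) chaperones and folding enzymes. These proteins fold secreted and membrane proteins after they enter the ER. Of the 9 members on this list, 8 were higher in both clones at all 3 times and none was lower, with medians of 1.00 in clone 2 and 0.35 in clone 4. Over all 101 genes of the list tested at 8 h the medians were 0.06 and 0.05. The 8 were Calr and Canx, the lectin chaperones calreticulin and calnexin; Hsp90b1, the ER form of HSP90; the protein disulfide isomerases P4hb, Pdia3, Pdia4 and Pdia6; and Dnajc13, which acts on endosomes rather than in the ER. The ninth, Tcp1, a subunit of the cytosolic chaperonin, was at -0.05 in clone 2 and -0.04 in clone 4. Calr ranged from 1296 to 1818 CPM in WT at 2 to 8 h (median 1619, TMM-scaled, as are all library values from here), from 3039 to 3844 in clone 2 (median 3197) and from 1884 to 3002 in clone 4 (median 2297). No Calr library of either clone overlapped WT. The log2 difference was 1.00 at 2 h, 1.11 at 4 h and 1.21 at 8 h in clone 2, and 0.51, 0.75 and 0.53 in clone 4, with SEs between 0.0405 and 0.0591. Canx moved least of the 8, from 1025 to 1248 CPM in WT (median 1089), 1317 to 1545 in clone 2 (median 1433) and 1223 to 1487 in clone 4 (median 1249). Its clone 4 libraries overlapped WT, although the test within each time passed (differences of 0.22, 0.38 and 0.18).

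Genes of this group are textbook targets of the unfolded protein response, and some carry an ER stress response element (ERSE) in the promoter. The RefSeq promoters (GRCm38.p6, 300 bases, from 250 before to 50 after the start) were searched on both strands for the ERSE, spelled CCAAT, then 9 bases of any kind (N), then CCACG, a search chosen after the values were seen. It was present for 37 of 27025 symbols (0.137%), for 4 of the 247 members with a promoter (1.62%) and for 4 of the 9 members of the chaperone list. The same promoters were also searched for the CArG box, spelled CC, then 6 bases that are A or T, then GG. It was present for 488 of the 27025 symbols (1.81%) and for 4 of the 247 members (1.62%). Among members with a promoter, 1 of 17 on the actin cytoskeleton list and 0 of the 13 opposite in the clones held it. A match is a description of the letters and not a sign of a bound site. The lack of a match does not show that a gene has no such site. Only the exact spelling was sought, and only within the 300 bases. The 4 ERSE windows are shown because their genes were all higher in both clones, each read on the gene's strand with the motif in capitals. In Calr the motif lies on the opposite strand, and in Canx, Hsp90b1 and Pdia6 on the gene's own strand. The windows lie at chr8:84847035-84847133 (Calr), chr11:50325760-50325858 (Canx), chr10:86705598-86705694 (Hsp90b1) and chr12:17266451-17266549 (Pdia6, plus strand; the others minus).
Calr: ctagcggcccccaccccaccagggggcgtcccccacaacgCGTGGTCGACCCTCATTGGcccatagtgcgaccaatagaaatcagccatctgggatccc
Canx: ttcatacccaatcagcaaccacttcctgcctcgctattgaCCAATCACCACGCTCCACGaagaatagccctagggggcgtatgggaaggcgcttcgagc
Hsp90b1: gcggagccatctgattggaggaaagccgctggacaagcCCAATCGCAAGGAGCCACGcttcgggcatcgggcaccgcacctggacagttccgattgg
Pdia6: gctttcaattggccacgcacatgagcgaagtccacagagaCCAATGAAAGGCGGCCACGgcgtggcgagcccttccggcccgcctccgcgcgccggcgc

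Hsp90b1 and Pdia6 behaved much like Calr in clone 2. Hsp90b1 lay between 919.5 and 1281 CPM in WT (median 1167), 1900 and 2714 in clone 2 (median 2225) and 1148 and 2104 in clone 4 (median 1513). Its clone 2 libraries stood clear of WT and its clone 4 libraries overlapped WT over the 3 times together, with differences within the times of 0.33, 0.72 and 0.31. Pdia6 lay between 416.1 and 515.6 CPM in WT, 915 and 1091 in clone 2 and 468.2 and 709.6 in clone 4.

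The next step of the secretory route showed the same direction. On the list of ER, Golgi and secretion genes, 9 of 18 members were higher in both clones at all times and none was lower, with medians of 0.73 in clone 2 and 0.18 in clone 4 (0.43 and 0.11 over all 156 genes of the list tested at 8 h). Among the 9 were Rpn1, Rpn2, Ddost and Stt3a, subunits of the oligosaccharyltransferase that attaches N-linked sugars in the ER; Ssr1, of the translocon; Sec31a and Copb2, coat proteins of the vesicles that shuttle between ER and Golgi; and the cargo receptor Surf4 and the small GTPase Arf4. Stt3a, a catalytic subunit, had mean differences of 1.28 in clone 2 and 0.40 in clone 4. At 8 h its libraries read 872.9 and 856.9 CPM in clone 2, 448 and 407 in clone 4 and 363.8, 353.3, 357.3 and 371.5 in WT, so the 3 lines did not overlap. Rtn4, which shapes ER tubules, was at -0.74 in clone 2 and 0.02 in clone 4 and held no call in both. Copa, another coat protein of ER and Golgi vesicles, was at 0.35 and 0.05.

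Genes for the extracellular matrix and for collagen processing moved in both directions. Of 15 members, 7 were higher in both clones at all times, 2 were lower and 2 were opposite, with medians of 0.26 in clone 2 and 0.38 in clone 4 and, over all 112 genes of the list tested at 8 h, 0.04 and 0.46. The 7 include those that make and modify collagen: Serpinh1, the collagen chaperone HSP47; P4ha1 and P4ha2, catalytic subunits of prolyl 4-hydroxylase, whose other subunit P4hb is on the chaperone list; Plod2, a lysyl hydroxylase; and Loxl2, which oxidises lysines for crosslinks. The others were Sparc, a secreted collagen-binding protein, and Nid1, nidogen, which joins laminin to collagen IV in basement membranes. Loxl2 gave the largest mean difference of the class in clone 2, at 2.27, with 0.51 in clone 4. The basement membrane protein Nid2, by contrast, was at 0.26 and -0.06. The Loxl2 libraries at 2 h read 1312 and 1208 CPM in clone 2, 347.5 and 331.4 in clone 4, and 246.2, 288.6, 252 and 242.3 in WT. Nid1 stood at 375.1 to 606.5 CPM in WT (median 502.5), 1564 to 1831 in clone 2 (median 1614) and 764 to 965.3 in clone 4 (median 941.4), and all libraries of both clones lay above all WT libraries. Serpinh1 read 1202 to 1458 CPM in WT (median 1338), 4137 to 4401 in clone 2 (median 4250) and 1655 to 2073 in clone 4 (median 1987), again with no overlap. Both genes thus put every clone 4 library between WT and clone 2. Sparc (chr11:55394159-55420080) read 2492 to 3302 CPM in WT (median 2868), 8116 to 9654 in clone 2 (median 9306) and 3553 to 4779 in clone 4 (median 3910), and its lines did not overlap either. The Serpinh1 difference was 1.62, 1.59 and 1.77 at 2, 4 and 8 h in clone 2 and 0.55, 0.55 and 0.43 in clone 4 (largest adjusted p = 5.82e-09).

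Sparc, Nid1 and the collagen-processing enzymes are also abundant products of parietal endoderm, a cell type that retinoic acid can induce. Summed endoderm markers were higher in the same order of lines (clone 2, then clone 4, then WT, as given above), and their part in these differences was not tested. The largest single part of that sum was Cubn, with means of 1052 CPM in WT, 2764 in clone 2 and 1703 in clone 4. The endoderm marker Dab2, which is counted in the sum and is itself a member at rank 77, had mean differences of 1.08 in clone 2 and 0.48 in clone 4.

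Lysosomal and endocytic members followed the same pattern in part. Of 9, 5 were higher in both clones at all times and 1 was lower, with medians of 0.72 and 0.37 (0.46 and 0.21 over all 78 genes of the list tested at 8 h). Ctsl, the lysosomal protease cathepsin L (chr13:64361890-64370772), ranged from 1324 to 1742 CPM in WT (median 1581), from 6104 to 7184 in clone 2 (median 7060) and from 1965 to 2764 in clone 4 (median 2194), with no overlap between lines. Its differences were 2.19, 2.11 and 2.11 in clone 2 and 0.64, 0.70 and 0.36 in clone 4. The cathepsins Ctsb and Ctsd had mean differences of 0.82 and 0.86 in clone 2 and 0.42 and 0.37 in clone 4, and Cltc, the clathrin heavy chain, 0.72 and 0.27. Lrp2, the endocytic receptor megalin, had means of 0.89 in clone 2 and 0.86 in clone 4 and varied more between libraries: 385.6 to 961.8 CPM in WT, 756.7 to 1538 in clone 2 and 808 to 1488 in clone 4, so its groups overlapped, and each of its calls in clone 4 was lost without either clone 4 library of that time (adjusted p up to 0.107). Lrp1, a related receptor, split the clones (-1.05 in clone 2 and 0.64 in clone 4). The member lower in both was Tfrc, the transferrin receptor, at -0.98 and -0.55. Other members among the 10 with the largest positive mean difference over the clones were Cyp26a1 and Fam129b, Lrpap1, the chaperone of LRP receptors, and Ckap4, an ER membrane protein that the list of tubulin and microtubule genes holds by its name.

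**Figure D3:**
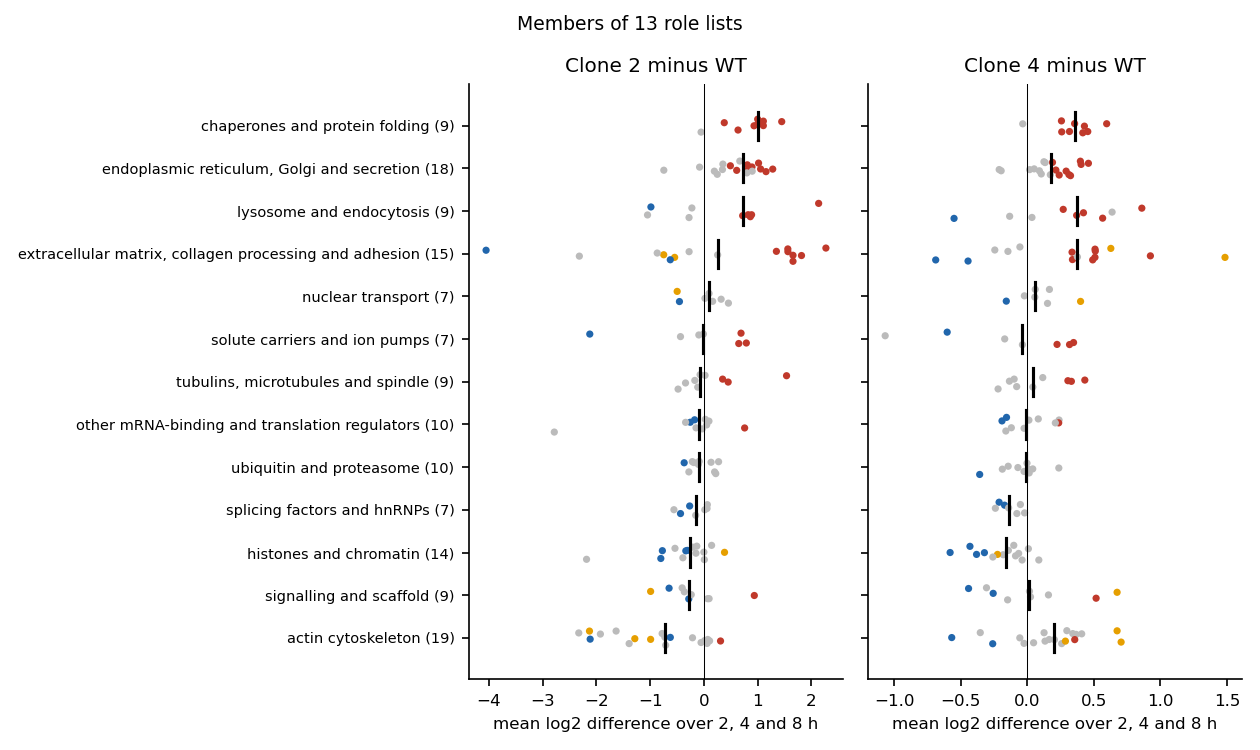
Members of 13 role lists (rows, with the number of members), each point the mean log2 difference from WT over 2, 4 and 8 h, for clone 2 (left) and clone 4 (right, on its own scale). Red marks members higher in both clones at all 3 times, blue lower in both, orange opposite and grey the rest, and black bars are list medians: 1.00 and 0.35 for chaperones, -0.72 and 0.20 for actin cytoskeleton genes.

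Among members lower in both clones, Fbn2 had the largest difference. It encodes fibrillin-2, a microfibril protein of embryonic matrix. WT libraries held 208.4 to 315.5 CPM at 2 to 8 h (median 250.9), clone 4 134.6 to 173.6 (median 160.1) and clone 2 13.38 to 17.93 (median 15.1). The groups did not overlap, and clone 2 kept a low level that was present in each library. The log2 difference was -4.27, -4.28 and -3.60 in clone 2 and -0.81, -0.98 and -0.28 in clone 4 at 2, 4 and 8 h, so the gap of clone 4 from WT at 8 h was the smallest of the 3 times.

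Of the 4 members on a list of imprinted genes, the paternally expressed Peg10, Mest and Peg3 were also in this class, and Igf2r, the IGF2 receptor, was not (mean differences of 0.19 in clone 2 and -0.22 in clone 4). Peg10, the member of highest rank (chr6:4747306-4760517), derives from a retrotransposon and is needed for the placenta. It read 5517 to 7348 CPM in WT (median 5864), 851.2 to 1145 in clone 2 (median 919.9) and 1980 to 3113 in clone 4 (median 2691). Mest read 470.2 to 607.2 CPM in WT, 83.64 to 97.07 in clone 2 and 280.5 to 314.2 in clone 4, and Peg3, a zinc finger protein, 2071 to 2789, 689 to 962.8 and 1180 to 1679. For each of the 3 genes every library of clone 2 lay below every library of clone 4, which in turn lay below WT. Slc38a4, an amino acid transporter that is imprinted in mouse, had mean differences of -2.12 and -0.60.

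Others lower in both were receptors and surface proteins of development. They included Notch3, a Notch receptor (means of -2.46 in clone 2 and -0.96 in clone 4), Tenm3, a teneurin of neuronal wiring (-2.14 and -0.82), Gpc3, a glypican (-2.04 and -0.70), and Prtg, protogenin (-1.15 and -0.66). Myh10, nonmuscle myosin IIB, was at -2.12 and -0.57. Neuroectoderm markers were also lower in clone 2, but in clone 4 their summed range lay within that of WT, and their part in these differences was not tested.

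The list of actin cytoskeleton genes, the longest by members, held the most opposite members of the role lists in number but not by a clear margin in share. Opposite were 3 of its 19, 2 of 15 extracellular matrix members and 1 of 7 nuclear transport members. For signalling it was 1 of 9 (Cald1, which is on both lists) and for histones and chromatin 1 of 14. Of 19 members 1 was higher in both clones (Arpc2, of the ARP2/3 complex), 2 were lower (Myh10 and Rdx, radixin) and 3 were opposite (Tpm1, Cald1 and Msn), with medians of -0.72 in clone 2 and 0.20 in clone 4; 13 held no such call. Over all 76 genes of the list tested at 8 h the medians were -0.18 and 0.27. Rdx is a weak case, since its clone 4 call at 4 h was lost in 5 of 8 fits that left out 1 library (adjusted p up to 0.249). The pattern of these 3 was shared by a member outside the list. Acta2, smooth muscle actin (chr19:34240336-34255585), read 777.1 to 1072 CPM in WT (median 921.9), 216.5 to 254.4 in clone 2 (median 239.8) and 1651 to 2027 in clone 4 (median 1766). Clone 2 thus lay wholly below WT and clone 4 wholly above it. The differences were -1.73, -1.99 and -2.06 in clone 2 and 1.09, 0.93 and 0.99 in clone 4, and the clones differed from each other by 2.81, 2.92 and 3.05 (adjusted p = 9.81e-38, 4.93e-21 and 9.77e-30). Tpm1, a tropomyosin that lines actin filaments, read 1530 to 1903 CPM in WT, 357.4 to 435.3 in clone 2 and 1826 to 2297 in clone 4, where it overlapped WT over the 3 times together. Msn, moesin, which ties actin to the membrane, read 286.6 to 485.1, 149.1 to 169.8 and 527.7 to 715.9, with no overlap between lines. Vim, an intermediate filament gene that the list also holds, was at -2.33 in clone 2 and -0.03 in clone 4, and Flna, a filamin, at -1.63 and -0.06.

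All 14 opposite members can be named, a choice made after their values were seen. Lower in clone 2 and higher in clone 4 were Tpm1, Acta2, Cald1, Msn, Lpp, Dstn and Phldb2, most of which bind or regulate actin or its anchors, with Itgb1 and Thbs1 of cell adhesion, the importin Ipo5 and the thioredoxin reductase Txnrd1. The glucose transporter Slc2a1 (0.66 and -0.52), the histone-binding protein Rbbp7 (0.38 and -0.23) and the peroxidase Pxdn (0.26 and -0.23) went the other way. Thbs1, thrombospondin 1, went in WT from 274.6 to 324.6 CPM at 0 h to 1109 to 1295 CPM at 2 h, a description without a test. At 2 to 8 h it read 772.4 to 1526 CPM in WT, 510.6 to 868 in clone 2 and 2871 to 3699 in clone 4. At 0 h, before the block, clone 2 read 505.7 and 559 CPM, above WT, so the sign in clone 2 at the later times is not that at 0 h. Summed fibroblast markers, with or without Acta2, were above WT in clone 4 and overlapped WT in clone 2 when Acta2 was counted; their part in the clone 4 values was not tested.

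**Figure D4:**
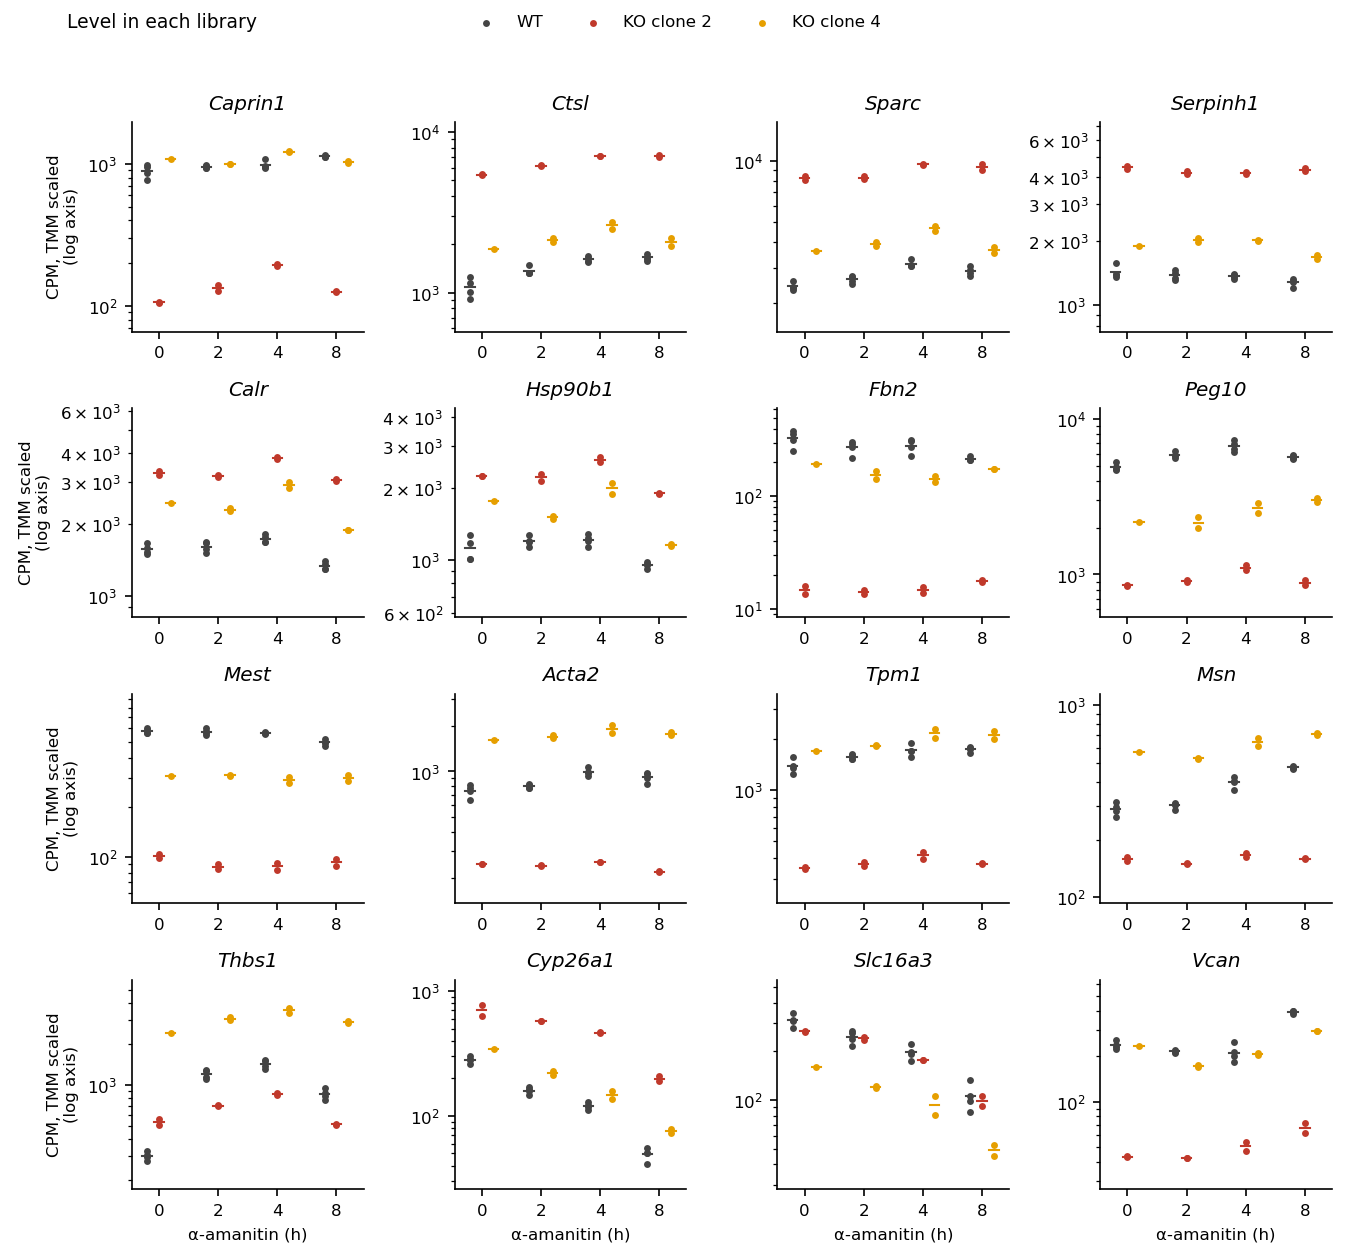
Level of 16 members in each library (log vertical axes, CPM scaled by TMM) by hours of α-amanitin (horizontal axes), with a short line at each mean. Clone 2 lies above WT for Ctsl, Sparc, Serpinh1, Calr and Hsp90b1 and below it for Fbn2, Peg10, Mest, Acta2, Tpm1, Msn and Vcan, while clone 4 stands between for the first 8 of these genes and above WT for Acta2, Msn and Thbs1.

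Nuclear and regulatory members showed smaller differences. Of 14 histone and chromatin members none was higher in both clones and 4 were lower: Cbx5, the heterochromatin protein HP1α, the demethylases Kdm5b and Kdm2a, and Dnmt1, the maintenance DNA methyltransferase. Their means were -0.80 and -0.38 (Cbx5), -0.77 and -0.58 (Kdm5b), -0.31 and -0.43 (Kdm2a) and -0.34 and -0.32 (Dnmt1) in clone 2 and clone 4. The remodeller Chd4 was at -0.39 and -0.18 and the topoisomerase Top2a at 0.14 and -0.14, with no call in both. Kdm5b read 405.5 to 467.5 CPM in WT at 8 h, against 252.3 and 269.6 in clone 2 and 297.7 and 281.8 in clone 4. Hmga2, an architectural chromatin protein of embryonic cells, was at -2.18 in clone 2 and -0.26 in clone 4. Of 7 splicing members 2 were lower in both, Prpf8 and Snrnp200, core proteins of the spliceosome, and none was higher. Their calls in clone 4 at 4 h were lost in 3 (Prpf8, adjusted p up to 0.134) and 5 (Snrnp200, up to 0.228) of 8 fits that left out 1 library. Hnrnpu was at 0.06 and -0.02, and Son and Sfpq changed sign at 4 h in clone 2 with library totals. Of 10 ubiquitin and proteasome members only the deubiquitinase Usp22 was called in both, lower, at -0.37 and -0.36. The others near the top of that list, Usp9x, Psmd2 and Cul4b, had means between -0.10 and 0.24 in both clones, and the Usp9x difference in clone 2 at 8 h changes sign with library totals. Of 7 nuclear transport members, the importin Ipo9 was lower (-0.45 and -0.16, with the clone 4 call at 4 h lost in 6 of 8 such fits) and Ipo5 opposite, and Tnpo1 (0.46 and 0.15) and Cse1l (0.02 and -0.02) held no call in both. Of 7 solute carriers and pumps, 3 were higher in both clones, among them the amino acid transporters Slc38a2 (0.79 and 0.32) and Slc38a1 (0.65 and 0.35), Slc38a4 was lower and the calcium pump Atp2b1 (-0.43 and -0.17) held no call in both. Of 9 signalling members 1 was higher in both clones, β-catenin Ctnnb1 (-0.28 and -0.26) and the Wnt receptor Fzd7 (-0.65 and -0.44) were lower, Cald1 was opposite, and α-catenin Ctnna1 (0.10 and 0.16) held no call in both. Of 9 tubulin and microtubule members Map4 (0.45 and 0.33), the kinesin Kif5b (0.35 and 0.30) and Ckap4 were higher in both, and Dync1h1, the dynein heavy chain, was at -0.11 and 0.12.

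RNA-binding members other than Caprin1 itself differed little from WT. Of 10, 1 was higher in both clones at all times (Hdlbp, vigilin, 0.76 and 0.24) and 2 were lower, among them Igf2bp1, which binds fetal growth mRNAs (-0.25 and -0.19). Some of these calls rest on 1 library: that of Hdlbp in clone 4 at 2 h was lost without replicate 1 of clone 4 (adjusted p = 0.0858), that of Igf2bp1 in clone 2 at 2 h was lost without replicate 2 of clone 2 (adjusted p = 0.156), and those of Igf2bp1 in clone 4 at 2 h and 4 h without replicate 1 and replicate 2 of clone 4 (adjusted p = 0.0748 and 0.0898). A list of 32 CAPRIN1 partner and stress granule genes held 8 members, and Caprin1 itself was counted in both numbers. In clone 2 the list gave 9 higher and 13 lower at 2 h, 15 and 6 at 4 h, and 8 and 14 at 8 h. Of all genes tested, 61.8%, 61.9% and 63.6% were called in clone 2 at these times. In clone 4 the list gave 9 and 9, 16 and 4, and 7 and 10, where 41.3%, 47.1% and 37.5% of all genes tested were called. Members Serbp1 and Ubap2l were higher in both clones at 4 h only (0.31 and 0.38 in clone 2, 0.45 and 0.24 in clone 4), and Prrc2c was lower in both at 2 h and 8 h (-0.38 and -0.29 in clone 2, -0.38 and -0.17 in clone 4).

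Changes under α-amanitin were read from 2 h to 8 h within each line. These values are relative to the other RNAs in a library. An RNA that decays more slowly than most therefore rises, and no spike-in is named in the labels. A rise or fall is not by itself a measure of decay, and how complete the block was is not tested here. Counts of each time were deposited apart, so time cannot be told apart from any difference in handling between the times. In WT 87 members rose and 69 fell (52% called, against 42.5% of all genes), in clone 2 57 rose and 47 fell (34.7% against 25.8%) and in clone 4 65 rose and 35 fell (33.3% against 20.4%). Of the WT calls 55.8% were increases, against 64.5% with library totals and 50.3% with DESeq2. The same sign was called in all 3 lines for 47 members: 30 rose (3.93% of all genes did) and 17 fell (5.25%). Without replicate 2 of clone 2 at 2 h the count in clone 2 was 69 of 300 members, and without replicate 1 of clone 4 at 2 h or replicate 2 at 8 h that in clone 4 was 58. Members as a whole took 16.2 ± 0.269% of WT counts at 0 h (SD, n = 4) and 17.4 ± 0.217% at 8 h. From 0 h to 8 h, 92 members rose and 42 fell in clone 2 (44.7% against 28.4%), and 39 rose and 41 fell in clone 4 (26.7% against 19.5%), where 0 h is 1 library, assumed in the fit to vary like the libraries of the other groups. Without replicate 2 of clone 2 at 0 h the clone 2 count was 78, and without replicate 2 of clone 4 at 8 h the clone 4 count was 51.

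Cyp26a1 fell most. It encodes the enzyme that breaks down retinoic acid, is itself induced by it, and lies at chr19:37697738-37701536. WT libraries read 282.5, 260.5, 284.7 and 299.1 CPM at 0 h, 169, 157.8, 163 and 146.6 at 2 h, 116.7, 129.4, 112 and 121.5 at 4 h, and 41.48, 50.32, 50.15 and 55.19 at 8 h. Clone 2 started higher and went from 578.6 and 572.8 CPM at 2 h to 206.9 and 190.6 at 8 h, and clone 4 from 211.6 and 229.4 to 78.73 and 72.55. Each line thus dropped without overlap between 2 h and 8 h. The log2 change from 2 h to 8 h was -1.69 ± 0.0749 in WT (SE), -1.53 ± 0.0955 in clone 2 and -1.54 ± 0.101 in clone 4. The clones differed from WT in this change by 0.15 (SE 0.12, adjusted p = 0.507) and 0.14 (SE 0.124, adjusted p = 0.621), although the level of Cyp26a1 was above WT at each time in both clones (1.87, 1.94 and 2.01 in clone 2, and 0.47, 0.30 and 0.64 in clone 4, where the 4 h call was lost without replicate 1, adjusted p = 0.0985).

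Slc16a3, the lactate exporter MCT4, came next, with changes of -1.22 in WT, -1.27 in clone 2 and -1.30 in clone 4. Its level in clone 4 was below WT at each time (-1.03, -1.09 and -1.08) and that in clone 2 was not called (-0.02, -0.18 and -0.08). The 8 h call in clone 4 was lost without either of its libraries (adjusted p up to 0.0945). Jarid2, of the Polycomb complex PRC2, fell by 0.77 in WT, and Gpc3 by 0.52. Mdm2, the ubiquitin ligase of p53, fell by 0.55. The largest WT increases were those of Vcan, the matrix proteoglycan versican (0.87), Ogt, the O-GlcNAc transferase (0.78), Lrp2 (0.71), Msn (0.66), the amino acid transporter Slc38a1 (0.60) and Fasn, fatty acid synthase (0.57). Vcan read 215.2, 218.8, 210.8 and 217.3 CPM in WT at 2 h and 398.7, 395.4, 401.3 and 379.3 at 8 h, and in clone 2 42.41 and 42.29 at 2 h and 62.45 and 72.43 at 8 h. Vcan thus rose in both lines at levels that differed by a log2 of -2.34 at 2 h and -2.53 at 8 h. Ogt did not move one way: WT libraries held 221.2 to 302.5 CPM at 0 h, 156.7 to 176.9 at 2 h, 130.9 to 155 at 4 h and 281.9 to 298.3 at 8 h.

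Whether the change from 2 h to 8 h differed between a clone and WT was tested directly. In clone 2 the change was higher than in WT for 15 members and lower for 18 (11% called, against 6.23% of all genes), and in clone 4 for 6 and 1 (2.33% against 1.68%). DESeq2 called 52 and 13 members. The split in clone 2 turned with the processing: 45.5% of the calls were higher in the main test, 27.8% with library totals and 63.5% with DESeq2. Single libraries also weighed on these counts. The clone 2 count was 15 to 21 without any 1 of the clone 2 libraries at 2 h or 8 h and 52 without replicate 2 of WT at 0 h. The clone 4 count was 0 or 1 without replicate 1 or 2 of clone 4 at 2 h or replicate 2 at 8 h; 2 to 4 without replicate 1 of clone 4 at 8 h, replicate 1, 2 or 4 of WT at 2 h, replicate 1, 2 or 3 of WT at 8 h, either clone 2 library at 0 h or replicate 1 of clone 2 at 8 h; and 14 or 15 without replicate 4 or 2 of WT at 0 h.

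Ptprs was the only member whose change differed from WT with the same sign in both clones (0.479% of all genes did). It encodes a receptor tyrosine phosphatase of neurons. WT libraries read 522.6, 502.9, 450 and 510.6 CPM at 2 h and 319.3, 323.4, 321.3 and 332.6 at 8 h, clone 2 265.4 and 256.2 then 233.2 and 219.2, and clone 4 313.6 and 323.7 then 278.4 and 283.5. WT therefore fell (-0.62, SE 0.0677), while the clones, lower from the start, were at -0.21 (adjusted p = 0.117) and -0.18 (adjusted p = 0.19). The difference in change was 0.41 in clone 2 (SE 0.118, adjusted p = 0.0291) and 0.43 in clone 4 (SE 0.118, adjusted p = 0.0478). The call in clone 4 was lost in 24 of 31 fits that left out 1 library, all except those without 1 of the WT or clone 4 libraries at 0 h, replicate 3 of WT at 2 h or replicate 4 of WT at 4 h, and that in clone 2 in 6, those without a clone 2 library at 2 h or 8 h or without replicate 1 or 4 of WT at 2 h. By contrast, Robo1, an axon guidance receptor, rose in clone 2 (0.57) and fell in WT (-0.42) and clone 4 (-0.27), a difference in change of 0.99 in clone 2 (adjusted p = 7.57e-08). Igf1r, the IGF1 receptor, rose in WT (0.31) and clone 4 (0.60) and fell in clone 2 (-0.58), a difference of -0.89 (adjusted p = 1.97e-06). Robo1 and Igf1r were chosen after their values were seen, as the members with the largest difference in each direction.

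**Figure D5:**
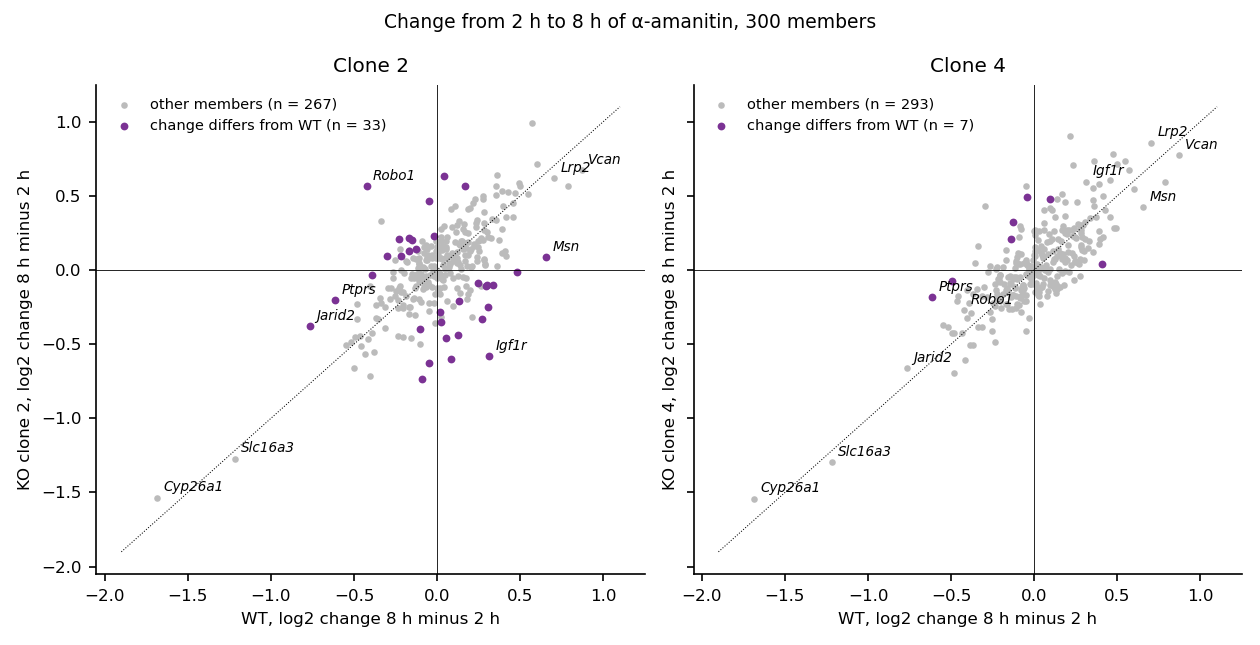
Log2 change from 2 h to 8 h of α-amanitin in WT (horizontal axes) against clone 2 (left) and clone 4 (right) for the 300 members. Purple points are members whose change differed from WT in the test of the difference, 33 in clone 2 and 7 in clone 4, and the dotted line marks equal change; both panels use the same WT libraries. Cyp26a1 (-1.69 in WT) and Slc16a3 (-1.22) lie near the line in both clones.

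Members also tended to have larger deposited lengths. The length the authors deposited beside the counts, whose definition is not given in the sources used here, had a median of 15389 bases over the members, 13551.5 over the top 300 only on the CNT list, 10330 over the top 300 only on the 2I list, 10665.5 over other genes at the members' level and 7614.5 over all genes tested. The deposited length exceeds the genomic span of some members, such as Actb (7853 bases, at chr5:142903115-142907976). It is therefore not a transcript length, and whether members have longer transcripts is not shown here. CPM values rise with transcript length, so rank among members does not compare numbers of molecules.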

How the data were processed

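The authors deposited raw counts per gene in 4 tables, 1 for each time of α-amanitin, with gene length as another kind of column, and, per the file headers, a pair of RIP-seq lists that hold gene symbols and other text without values. The submitters' processing notes name the builds GRCm38 and mm10 and, as tools, Cuffdiff, Cufflinks, DESeq2, STAR 2.4.0.1, TopHat and FastQC 0.11.9. The role of each tool, the counter, its strand setting and the annotation were items not given in the sources used here, so counts of overlapping genes and near-identical copies are uncertain. Of 51520 lines, 110 repeated an identifier with identical counts and were dropped. The 0 h table holds no column for KO clone 4 replicate 1, which leaves 31 libraries, of 3460172 to 31565738 counts.

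In R 4.3.3, edgeR 4.0.16 (TMM, filterByExpr, robust quasi-likelihood F test) compared each clone with WT and with the other clone within each time (3 groups), and 8 h with 2 h or 0 h, and these changes between lines, in 1 fit of all 12 groups (19 residual degrees of freedom). Genes were called at a Benjamini-Hochberg adjusted p under 0.05 over all genes tested; SE is the log2 difference divided by the square root of F. The steps were tested on simulated data. Alternatives were DESeq2 1.42.0, library totals without TMM, no filter, a replicate block, the joint fit for levels, pooled clones, the top 150, ranking per deposited length and leaving out each library.

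Members and lists were chosen with earlier results of these data known. Role lists match symbols by pattern. Named are Caprin1, the 10 highest ranks, members at the limit, the 10 largest differences in each direction among members called in both clones at all times, 4 opposite ones, the 6 largest WT changes each way, members whose change differs in both clones, and the top 4 of each role list with 5 or more members; other members named to fill out a list were picked after their values were seen. RefSeq (GRCm38.p6) gave positions for 299 members and promoters for 247. A few members are counted but not reported by name here.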

Additional observations from a re-analysis of the deposited data

Results flagged for a closer look

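The clones differed from each other in most members. In edgeR's test of clone 4 against clone 2, 203 members were called at 2 h, 188 at 4 h and 229 at 8 h, of 300. The change from 2 h to 8 h differed from WT in 33 members in clone 2 and 7 in clone 4.

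Among the genes whose libraries are printed, 104 groups of 4 WT libraries were looked at for 1 library far from the other 3, and 5 were found, where chance gives about 1 in 20. Ctsl in WT replicate 3 at 2 h stood at 1482 CPM, against 1324 to 1334 in the others. At 4 h, Sparc in WT replicate 2 stood at 3302 CPM (others 3036 to 3076), P4hb in the same library at 1701 (others 1537 to 1549), Ptprs in replicate 3 at 522.9 (others 491.5 to 493.7) and Lrp2 in replicate 1 at 426.1 (others 645.5 to 653.4). Replicate 2 at 4 h is the library of 3460172 counts.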

How the results depend on the processing

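Of the 61 members higher in both clones, 60 were so with DESeq2, 44 with library totals, 56 without the filter, 58 with the replicate block and 48 in the joint fit; of the 34 lower, 32, 34, 29, 26 and 27; of the 14 opposite, 14, 12, 14, 13 and 13. Counts that moved by over 1.5 times, as percent of members, were the changes that differ from WT with DESeq2 (17.33% in clone 2 and 4.333% in clone 4, against 11% and 2.333%), members lower in both with library totals (17.67% against 11.33%), opposite members among the top 150 (7.333% against 4.667%) and 8 h calls with the clones pooled as KO (28% against 43% called in both). With library totals 5 small differences in clone 2 changed sign: Tubb5 (-0.04104) and Usp9x (-0.03705) at 8 h, and Myh9 (-0.02351), Son (-0.01009) and Sfpq (-0.006937) at 4 h. The cause was not tested.

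Leaving out each library in turn gave, in percent of members, 74 to 82.67% (clone 2 against WT, 2 h), 69.67 to 84.33% (4 h), 77 to 82.33% (8 h), 51 to 69.33% (clone 4 against WT, 2 h), 45.33 to 73.33% (4 h), 56 to 64.67% (8 h). For calls in both clones it gave 39.67 to 54.33% (2 h), 35 to 56% (4 h), 36.67 to 43% (8 h), 18.33 to 20.67% (higher at all times), 9 to 11.67% (lower), 4 to 5.333% (opposite). From 2 h to 8 h it gave 45.33 to 55.33% (WT), 23 to 40% (clone 2), 19.33 to 37.33% (clone 4), 10.67 to 17.33% (all 3 lines), from 0 h to 8 h 26 to 50.67% (clone 2), 17 to 29.67% (clone 4), and for the changes that differ from WT 5 to 17.33% (clone 2), 0 to 5% (clone 4).

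Replicate numbers did not pair the libraries: deviations of same-numbered libraries correlated between -0.16 and 0.104. With the replicate block 77.67% of members were called in clone 2 at 8 h and 57.67% in clone 4, against 81% and 65%, no count moved by over 1.5 times, and of 513 differences of named members 499 kept their call and 14 no longer passed. Without the only clone 4 library at 0 h its change from 0 h cannot be computed.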
